A study of Homo sapiens with 6 samples.

Results

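Cathepsins are the proteases of the lysosome, and 10 of their genes were examined in human macrophages kept in medium of tumor cells with or without a hairpin against SPP1. The members were chosen by name, as the rows of the deposited gene tables with the symbols CTSA, CTSB, CTSC, CTSD, CTSH, CTSK, CTSL, CTSO, CTSS and CTSZ. All 10 were present among 17513 genes, and all 10 passed the filter on low counts that left 13555 genes for testing. By catalytic class, 8 were cysteine proteases, 1 (CTSD) was an aspartic protease and 1 (CTSA) was a serine protease.

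Per the series description, the cells sequenced were macrophages made from the monocytic leukemia line THP1, and they had spent 48 h in medium conditioned by KYSE150, a line of human esophageal squamous cell carcinoma. In the shSPP1#2 group the KYSE150 cells carried a hairpin directed at SPP1, the gene of the secreted glycoprotein osteopontin, and in the shNC group they carried the hairpin named shNC. There were 3 libraries of polyadenylated RNA in each group. The shSPP1#2 arm rests on 1 hairpin in 1 tumor line, both arms share the same receiving line, and the labels do not say whether replicates are separate cultures, so the p-values reflect the spread among these libraries, possibly a technical one. The question named by the series title is whether tumor SPP1 acts on macrophages of the M2 type.

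Cathepsins are made as inactive precursors in the endoplasmic reticulum. Most are tagged with mannose 6-phosphate, carried to the lysosome by receptors for that tag, and activated there at acid pH by removal of a propeptide. Macrophages use them to digest what they engulf, to trim peptides and the invariant chain for antigen presentation, and, when the enzymes are secreted, to cut matrix outside the cell. The cysteine members share a papain-like fold, CTSD belongs to the pepsin-like family, and CTSA is a carboxypeptidase that also shields partner enzymes from breakdown.

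The sample labels name KYSE150 itself, whereas the RNA carried macrophage markers. Of 16 monocyte and macrophage markers, 15 reached 1 FPKM in each library, with LAPTM5 the most abundant at 725 to 823 FPKM. MRC1 (CD206), a receptor of M2-type macrophages, was the exception at 0.01 to 0.03 FPKM. CD163 was only just above that threshold, at 1.33 to 1.69 FPKM, where the median of the list was 125 to 149 FPKM. Of 12 squamous epithelial markers, 2 reached 1 FPKM. The osteoclast list, of interest because CTSK is an osteoclast protease, had 6 of 7 markers present and all 6 above 1 FPKM. MMP9 measured 752 to 859 FPKM and the fusion genes OCSTAMP and DCSTAMP 186 to 221 and 126 to 147 FPKM, whereas ACP5 and ATP6V0D2 measured 1.23 to 2.05 and 2.19 to 2.69 FPKM. Its summed level was 1083 to 1193 FPKM in shSPP1#2 medium and 1154 to 1217 FPKM in shNC medium. SPP1 in the receiving cells measured 1932 to 2061 FPKM in shSPP1#2 medium and 1890 to 2075 FPKM in shNC medium, which does not check the knockdown in the cells that made the medium. Each library held between 18113591 (shNC replicate 2) and 20626346 (shNC replicate 3) estimated counts, and the next lowest, shSPP1#2 replicate 2, held 20202142. On the first principal component (34.0% of the variance) replicate 2 of both groups scored highest. The scores were 6.62 in shSPP1#2 medium and 10.1 in shNC medium, against -7.58 to -0.021 for the other 4 libraries. On the second component the same libraries lay at opposite ends, at 9.82 in shSPP1#2 medium and -6.39 in shNC medium. The other 4 libraries ran from -3.74 to 2.58 there.

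Promoter sequences from RefSeq (GRCh38.p14) were matched for 6 members, over a window from 250 bases before to 50 bases after the annotated start. The palindromic E-box CACGTG, which is the core of the element bound by TFEB and its relatives in promoters of lysosomal genes and reads the same on both strands, was looked for. It lay in the promoters of CTSD and CTSA and in 0 of the 4 cysteine cathepsin promoters matched (CTSC, CTSH, CTSL and CTSZ). Among all 35116 promoters of the same length, 7.26% held it. The last 60 bases before the start are shown 5′ to 3′ for the pair that held the box and for CTSL and CTSZ, the members with the lowest log2 fold changes below. Capitals mark the box, whose first base lay at -47 in CTSD and at -42 and -25 in CTSA, counted from the start. The windows are chr11:1763928-1763987 (minus strand) for CTSD, chr20:45891275-45891334 (plus) for CTSA, chr9:87726059-87726118 (plus) for CTSL and chr20:59007255-59007314 (minus) for CTSZ. Those of CTSD, CTSA and CTSL lie inside the gene as the GENCODE v29 annotation bounds it, so they depend on the start that was taken.
CTSD: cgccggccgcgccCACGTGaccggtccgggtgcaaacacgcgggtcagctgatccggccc
CTSA: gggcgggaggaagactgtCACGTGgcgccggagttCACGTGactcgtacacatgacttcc
CTSL: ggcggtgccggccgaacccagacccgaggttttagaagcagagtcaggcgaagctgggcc
CTSZ: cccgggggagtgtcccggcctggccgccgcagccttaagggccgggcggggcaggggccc
A match describes these letters and is no evidence of binding, and no match says only that they are not in this window. CTSC and CTSH, also without the box, had log2 fold changes of -0.0017 and -0.028. A link between the box and the fold changes was not tested.

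The 10 cathepsins spanned a wide range of levels, from 1836 FPKM for CTSL to 7.99 FPKM for CTSK as means over the 6 libraries. FPKM scales fragments by gene length and library total, so it allows levels to be compared between genes. CTSL ranked number 16 of all 17513 genes by mean FPKM, CTSB number 124 and CTSD number 138. The order after CTSL was CTSB at 491 FPKM, CTSD at 450 FPKM, CTSZ at 218 FPKM, CTSH at 203 FPKM, CTSS at 89.1 FPKM, CTSA at 83.2 FPKM, CTSC at 48.9 FPKM and CTSO at 11.3 FPKM. CTSL was 3.74 times as high as CTSB, the next in order. Neighbours whose ranges over the 6 libraries overlapped were CTSB and CTSD, CTSZ and CTSH, and CTSS and CTSA, and the other neighbours lay apart. Within a library CTSB was above CTSD in 6 of 6, CTSZ above CTSH in 5 of 6 and CTSS above CTSA in 5 of 6. Together the 10 genes took 0.649% to 0.721% of all estimated counts.

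**Figure D1:**
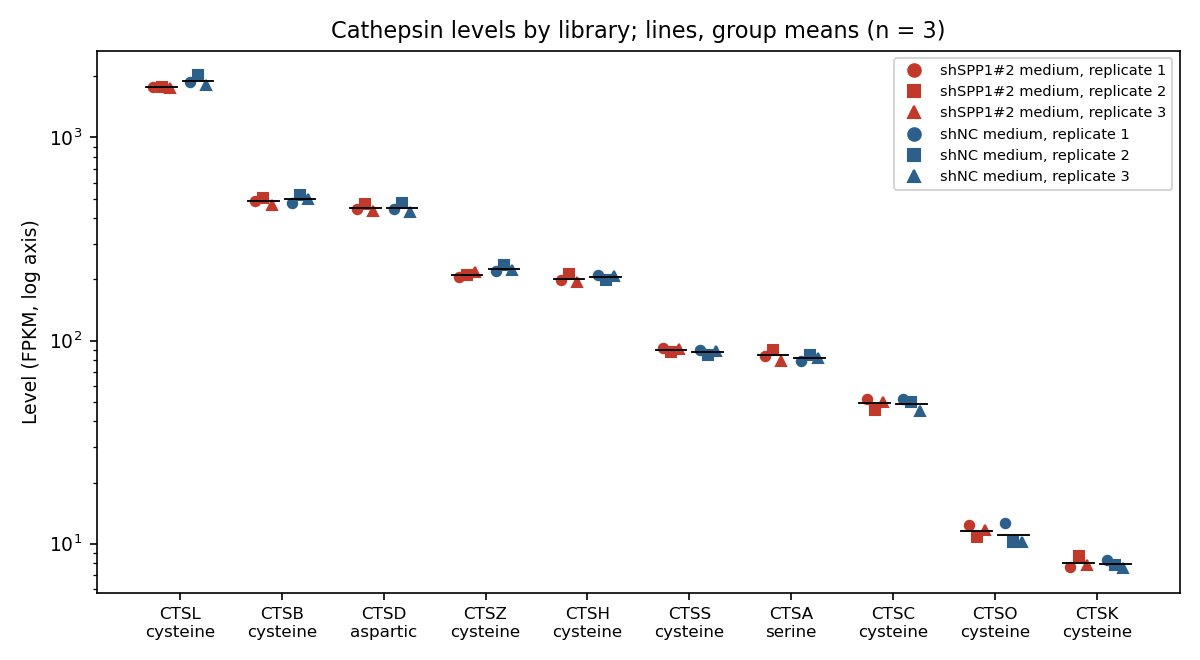
FPKM (log axis) of the 10 cathepsins in the 3 libraries of shSPP1#2 medium (red, left) and the 3 of shNC medium (blue, right), ordered by mean level, with lines at group means. The genes range from 1836 FPKM for CTSL to 7.99 FPKM for CTSK, and differences between groups are small beside those between genes.

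No cathepsin differed between the media at an adjusted p below 0.05 in the edgeR quasi-likelihood test, adjusted over all 13555 genes. The same held for the whole table, where 0 genes were called (0.0%), so the count of 0 of 10 does not set the cathepsins apart. DESeq2 called 25 genes and limma-voom 1, with 0 cathepsins in either. At an unadjusted p below 0.05 the test gave 2 members, CTSL and CTSZ, and 928 of all genes (6.85%). Both were lower in shSPP1#2 medium, as were 3.39% of all genes at that threshold. The same 2 members were those whose groups did not overlap, which held for 10.5% of tested genes in FPKM and 11.1% in log2 CPM (counts scaled to TMM-adjusted library totals), and in the lower direction for 5.05% in FPKM and 5.5% in log2 CPM. An excess of 2 among 10 members was not tested. Log2 fold changes, shSPP1#2 minus shNC, ran from -0.12 for CTSL to 0.073 for CTSO, with a median of -0.0077 over the 10, against -0.00030 over all genes tested. Of the members 6 were negative and 4 positive, and of all genes 50.1% were negative. The 95% intervals of all 10 lay between -0.22 and 0.24, that is within 0.25 of 0, as did those of 55.3% of the genes tested. That share is not matched for level. Standard errors ran from 0.042 to 0.088 for the members and from 0.041 to 1.04 for all genes tested. These intervals are not adjusted for the number of genes. In bulk RNA, fewer cells of a type and less RNA per cell cannot be told apart.

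**Figure D2:**
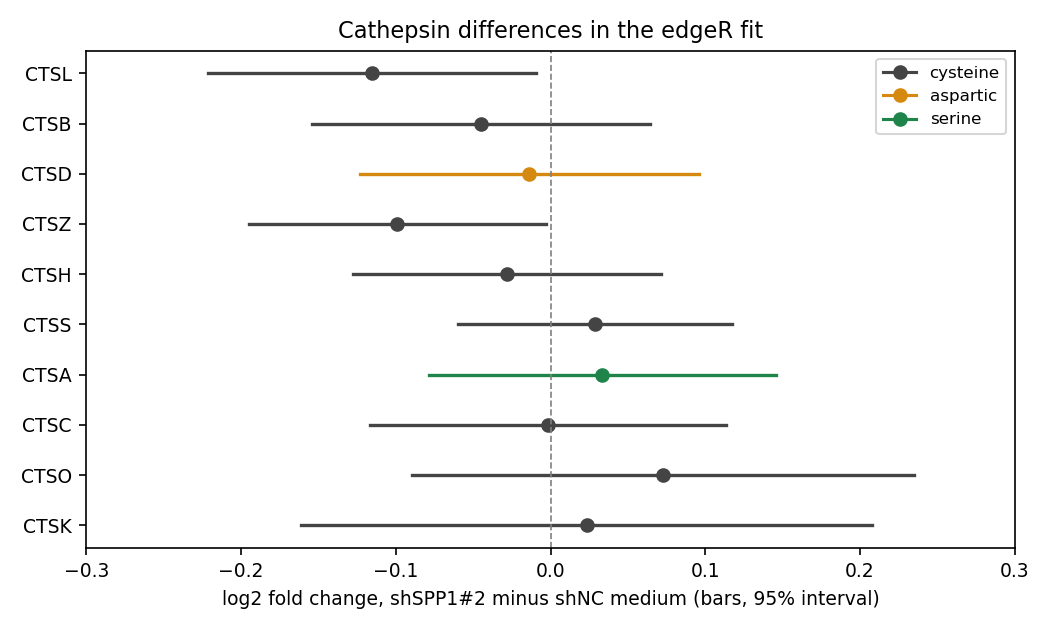
Log2 fold changes of the 10 cathepsins (points) in shSPP1#2 minus shNC medium with 95% intervals (bars) from the edgeR fit, from the most to the least abundant, coloured by catalytic class. CTSL at -0.12 and CTSZ at -0.099 have intervals below 0 before adjustment, and the other 8 intervals include 0.

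CTSL, an endopeptidase of broad specificity that also acts when secreted, had the most negative value of the 10, and it did not pass the test. Its level was 1772, 1774 and 1752 FPKM in shSPP1#2 replicates 1, 2 and 3, against 1876, 2022 and 1818 FPKM in the shNC replicates. The groups did not overlap, and the nearest libraries, shSPP1#2 replicate 2 and shNC replicate 3, were 44.3 FPKM apart. The means were 1766 ± 12.3 FPKM in shSPP1#2 medium and 1905 ± 105 FPKM in shNC medium (SD, n = 3 each). The shSPP1#2 libraries lay close together, and the spread of the shNC group came mainly from replicate 2, the highest of the 6. The log2 fold change was -0.12 (standard error 0.051, 95% interval -0.22 to -0.0096, edgeR adjusted p = 0.691). Without shNC replicate 2, the library with the highest score on the first principal component, it was -0.063. In GENCODE v29 (GRCh38) CTSL occupies positions 87725519 to 87731393 of chromosome 9, plus strand, and overlaps no other gene. RefSeq lists 7 CTSL pseudogenes and 0 of them are in the deposited table. The sources used here do not give how reads shared with such copies or with the paralog CTSV were assigned, so the counts of CTSL are uncertain to that degree.

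CTSZ, a carboxypeptidase with an integrin-binding motif in its propeptide, had the other pair of groups that did not overlap. It measured 205, 210 and 219 FPKM in shSPP1#2 replicates 1, 2 and 3, against 219, 234 and 223 FPKM in the shNC replicates. The gap between the nearest libraries, shSPP1#2 replicate 3 and shNC replicate 1, was only 0.57 FPKM. Its means were 211 ± 6.82 FPKM in shSPP1#2 medium and 226 ± 7.91 FPKM in shNC medium (SD, n = 3 each). The log2 fold change was -0.099 (95% interval -0.19 to -0.0032, edgeR adjusted p = 0.714), and -0.064 without shNC replicate 2.

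CTSB, an endopeptidase with an exopeptidase activity and the second most abundant cathepsin here, overlapped between the groups. It measured 486, 502 and 465 FPKM in the shSPP1#2 replicates, against 475, 523 and 496 FPKM in the shNC replicates. Both the lowest and the second highest library were of shSPP1#2 medium. The log2 fold change was -0.045 (95% interval -0.15 to 0.064, edgeR adjusted p = 0.918).

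CTSH, an aminopeptidase, and CTSS, the main protease of invariant chain processing in antigen-presenting cells, showed no separation either. CTSH measured 198, 212 and 194 FPKM in shSPP1#2 medium, against 210, 198 and 207 FPKM in shNC medium. Its highest and its lowest library were both of shSPP1#2 medium (log2 fold change -0.028, 95% interval -0.13 to 0.072, edgeR adjusted p = 0.954). CTSS measured 92.0, 87.5 and 90.9 FPKM in shSPP1#2 medium, against 90.3, 85.3 and 88.4 FPKM in shNC medium. It varied least of the 10, its highest library being 1.08 times its lowest (log2 fold change 0.029, 95% interval -0.060 to 0.12, edgeR adjusted p = 0.945).

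CTSC, the dipeptidyl peptidase that activates granule serine proteases, gave the value nearest to 0. It measured 51.9, 45.6 and 49.7 FPKM in shSPP1#2 medium, against 51.6, 49.9 and 45.1 FPKM in shNC medium. The groups spanned nearly the same range, and the log2 fold change was -0.0017 (95% interval -0.12 to 0.11, edgeR adjusted p = 0.999).

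The least abundant members were CTSO, a widely expressed cysteine cathepsin of poorly known substrates, and CTSK, the collagen-degrading protease of osteoclasts. CTSO measured 12.4, 10.8 and 11.7 FPKM in shSPP1#2 medium, against 12.6, 10.2 and 10.1 FPKM in shNC medium. Its highest and lowest libraries were both of shNC medium, and it varied most of the 10, the highest being 1.24 times the lowest. The log2 fold change was 0.073 (95% interval -0.090 to 0.24, edgeR adjusted p = 0.907), and 0.18 without shNC replicate 1 (edgeR adjusted p = 0.611). Without shSPP1#2 replicate 1, shNC replicate 2 or shNC replicate 3 it was 0.026, 0.032 or 0.016. CTSK measured 7.66, 8.69 and 7.86 FPKM in shSPP1#2 medium, against 8.28, 7.86 and 7.58 FPKM in shNC medium. With 225 to 277 estimated counts per library it had the widest standard error, 0.088, around a log2 fold change of 0.023 (edgeR adjusted p = 0.980). CTSS and CTSK lie in a row on the minus strand of chromosome 1, 30250 bases apart in GENCODE v29, and CTSS was 89.1 FPKM where CTSK was 7.99 FPKM.

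CTSD, the aspartic member, cleaves lysosomal proteins and activates other precursors, and its level was close in both media. It measured 442, 470 and 434 FPKM in shSPP1#2 medium, against 446, 477 and 430 FPKM in shNC medium. In both groups replicate 2 was highest and replicate 3 lowest (log2 fold change -0.014, 95% interval -0.12 to 0.096, edgeR adjusted p = 0.981). CTSA, the serine member, measured 84.4, 90.1 and 79.0 FPKM in shSPP1#2 medium, against 79.5, 84.6 and 81.8 FPKM in shNC medium. The highest and the lowest library were again of shSPP1#2 medium (log2 fold change 0.033, 95% interval -0.079 to 0.15, edgeR adjusted p = 0.950). Both genes share exonic bases with other annotated genes in GENCODE v29, CTSD over 52.7% and CTSA over 28.5% of their exonic bases, so their counts are uncertain. For CTSD, 41.7% of exonic bases are shared with AC068580.4, a protein-coding gene on the same strand, and 15.8% with an antisense gene. Neither of these genes is in the deposited table under its GENCODE symbol, and how reads in the shared bases were assigned is not given. All genes that share bases with CTSA are on the other strand, and strand use in counting is not given. Of the neighbours that overlap CTSA on the other strand, PLTP measured 4.37 to 5.04 FPKM and NEURL2 0 to 0.17 FPKM.

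Some libraries were the highest or the lowest for several members. On the log2 CPM scale shNC replicate 2 was the highest library for 4 members (CTSL, CTSB, CTSD and CTSZ) and shSPP1#2 replicate 2 for 3 (CTSH, CTSA and CTSK). The lowest was shSPP1#2 replicate 3 for 5 members (CTSL, CTSB, CTSD, CTSH and CTSA) and shNC replicate 3 for 3 (CTSC, CTSO and CTSK). The libraries numbered 2 scored highest on the first principal component and lay at opposite ends of the second. The part of these components in the cathepsin levels was not tested. The share of all tested genes with the same library highest or lowest was not computed, so these counts do not set the cathepsins apart.

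**Figure D3:**
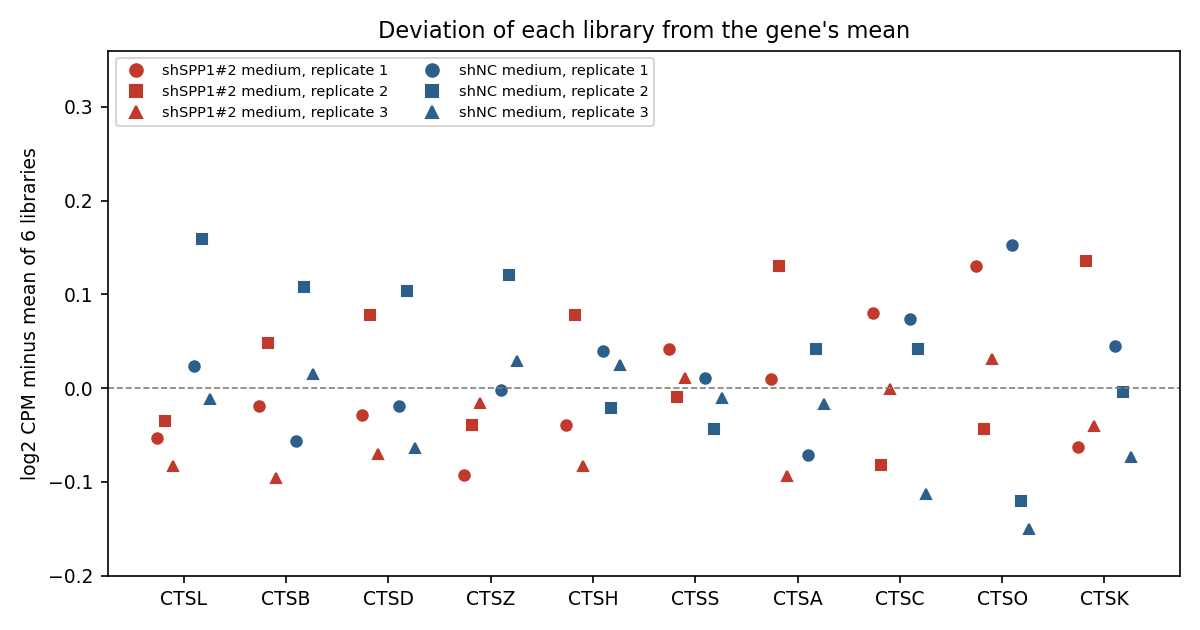
Log2 CPM in each library relative to the average of all 6, for the 10 cathepsins ordered by level, with shSPP1#2 medium in red (left) and shNC medium in blue (right), and a symbol per replicate number. The groups separate for CTSL and CTSZ, and shNC replicate 2 (blue square) is highest for CTSL, CTSB, CTSD and CTSZ.

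The cysteine class held a slightly smaller part of cathepsin RNA in shSPP1#2 medium. Its share of the summed FPKM of the 10 genes was 84.3%, 83.6% and 84.5% in shSPP1#2 replicates 1, 2 and 3, against 84.8%, 84.8% and 85.0% in the shNC replicates. The groups did not overlap, and the difference of the means was -0.753 percentage points (84.1% ± 0.466 in shSPP1#2 medium and 84.9% ± 0.0964 in shNC medium, SD, n = 3 each). The aspartic share was 13.4% ± 0.350 in shSPP1#2 medium and 12.8% ± 0.159 in shNC medium, and the serine share 2.52% ± 0.125 and 2.33% ± 0.0647 (shSPP1#2 and shNC medium, SD, n = 3 each). The summed FPKM of the cysteine class averaged 2822 ± 30.8 in shSPP1#2 medium and 2990 ± 125 in shNC medium, whereas CTSD averaged 449 ± 18.7 and CTSA 84.5 ± 5.55 in shSPP1#2 medium, against 451 ± 24.0 for CTSD and 81.9 ± 2.56 for CTSA in shNC medium. CTSL alone made up 52.6% ± 0.549 of all cathepsin FPKM in shSPP1#2 medium and 54.1% ± 0.691 in shNC medium. Without CTSL the cysteine share was 66.5% ± 0.592 in shSPP1#2 medium and 67.0% ± 0.702 in shNC medium, and the groups overlapped, with a difference of -0.578 percentage points. No test was made of these sums.

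**Figure D4:**
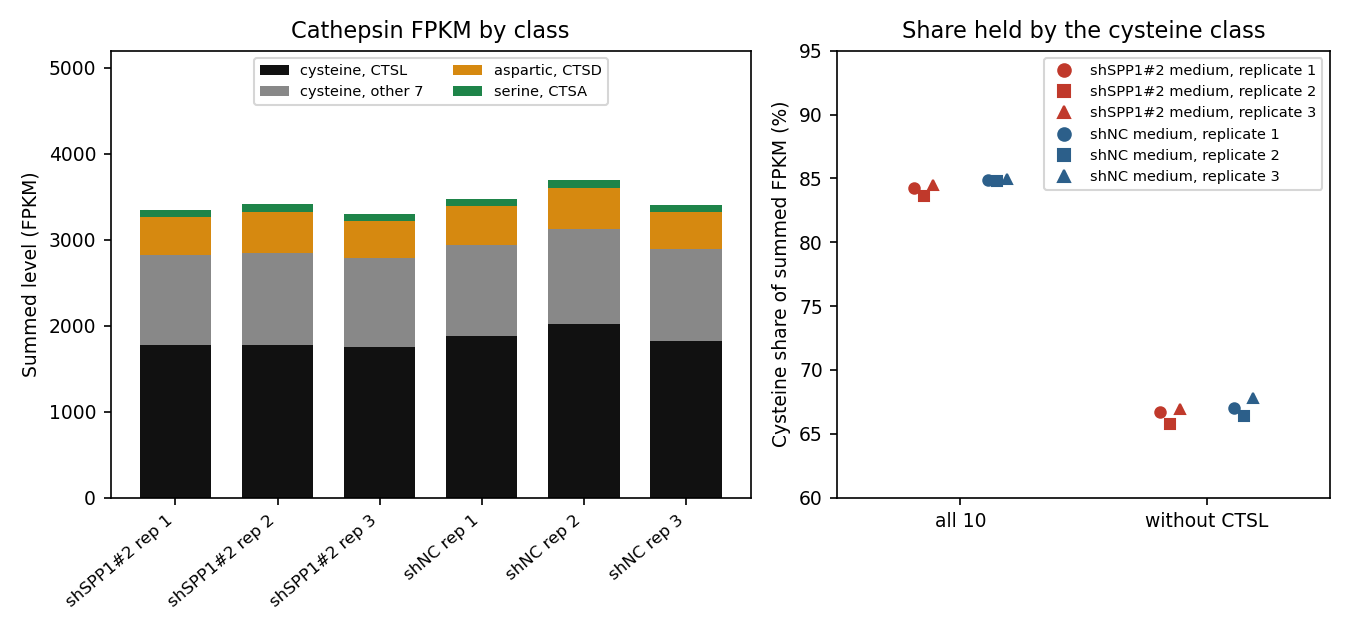
Left, summed FPKM of CTSL, the other 7 cysteine cathepsins, CTSD and CTSA in each library (bars from 0). Right, share of the summed FPKM held by the cysteine class in each library, with all 10 genes (84.1% in shSPP1#2 and 84.9% in shNC medium on average) and without CTSL (66.5% and 67.0% in the same order), on an axis that starts at 60%.

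The genes whose pattern over the 6 libraries was most like that of CTSL, by mean absolute difference of centred log2 CPM among 7720 genes whose log2 CPM averaged 4 or more, were RPL31 (0.011), ENSA (0.014) and NDEL1 (0.014). The median over those genes was 0.079. Among cathepsins the closest was CTSZ at 0.036, which ranked number 273, then CTSB at 0.048 and CTSD at 0.050. With 6 libraries such closeness is a description only.

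Genes that make, sort, restrain or depend on cathepsins likewise gave 0 calls, over 42 tested genes in 7 lists. Among other cathepsins of the genome, 3 of 5 were tested, with a median log2 fold change of -0.015. CTSW, a cysteine cathepsin described in T and NK cells, measured 74.1 to 86.7 FPKM, about the level of CTSA, with a log2 fold change of -0.015 (edgeR adjusted p = 0.981). The T and NK marker list had 4 of its 7 genes in the table and 2 or 3 of them at 1 FPKM or more, led by GNLY at 214 to 274 FPKM. Its sum was 219 to 245 FPKM in shSPP1#2 medium and 238 to 280.2 FPKM in shNC medium. CTSV, the paralog of CTSL, reached 0.27 FPKM at most (log2 fold change 0.46, 95% interval -0.16 to 1.09), and the neutrophil serine protease CTSG 1.40 FPKM (-0.23, -0.80 to 0.33). CTSE and CTSF did not exceed 0.03 FPKM and were not tested.

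The list of tagging and sorting genes was the one in which all tested members had the same sign. Its 8 members had positive log2 fold changes with a median of 0.068, where 49.9% of all tested genes are positive, and 0 of 8 passed. The list was singled out after the signs were seen, and the shared sign was not tested. IGF2R, the large mannose 6-phosphate receptor, had a log2 fold change of 0.12 (95% interval 0.012 to 0.22, edgeR adjusted p = 0.673). SORL1, a sorting receptor, had 0.18 (95% interval -0.0034 to 0.36), and M6PR, the small receptor, had 0.0018 (95% interval -0.089 to 0.093).

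Of the MiT/TFE regulators and their switch, which includes TFEB and other factors that drive lysosomal genes, 9 were tested, 6 positive and 3 negative, with a median of 0.044. FNIP1, a partner of folliculin, had a log2 fold change of 0.12 (95% interval 0.018 to 0.22, edgeR adjusted p = 0.633), TFEC had 0.11 and TFE3, the most abundant at 21.7 to 23.7 FPKM, had -0.043. TFEB itself, named after its value was seen, had the most negative value of the list, -0.14 (95% interval -0.30 to 0.014, edgeR adjusted p = 0.764). Of processing genes and partners, 7 were tested with a median of 0.0065. GLB1, the beta-galactosidase that CTSA shields, had 0.12 (95% interval 0.014 to 0.23, edgeR adjusted p = 0.673), SGSH, a sulfatase of heparan sulfate breakdown, had 0.099 (95% interval -0.15 to 0.35), and PSAP, the saposin precursor that CTSD helps to cut, had 0.0043 at 568 to 613 FPKM.

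Inhibitors of cathepsins gave a median of -0.036 over 7 tested genes. The cytosolic inhibitor CSTB was the most abundant, at 708 to 849 FPKM, and had a log2 fold change of -0.040. The secreted inhibitor CST3 had -0.11 (95% interval -0.22 to 0.0076, edgeR adjusted p = 0.756), and SERPINB1, an inhibitor of granule serine proteases, had 0.065. Antigen processing partners gave a median of -0.035 over 4 tested genes, among them the thiol reductase IFI30 at -0.056 and CD74, the invariant chain, at -0.047. Of the genes listed as granule substrates of CTSC, 5 were tested with a median of 0.029. ELANE, neutrophil elastase, had a log2 fold change of 0.45 (95% interval 0.041 to 0.86, edgeR adjusted p = 0.688) at 1.70 to 3.17 FPKM, and GZMB, granzyme B, had -0.25 (95% interval -0.48 to -0.010, edgeR adjusted p = 0.710) at 8.19 to 12.2 FPKM. CTSC itself lay at -0.0017.

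**Figure D5:**
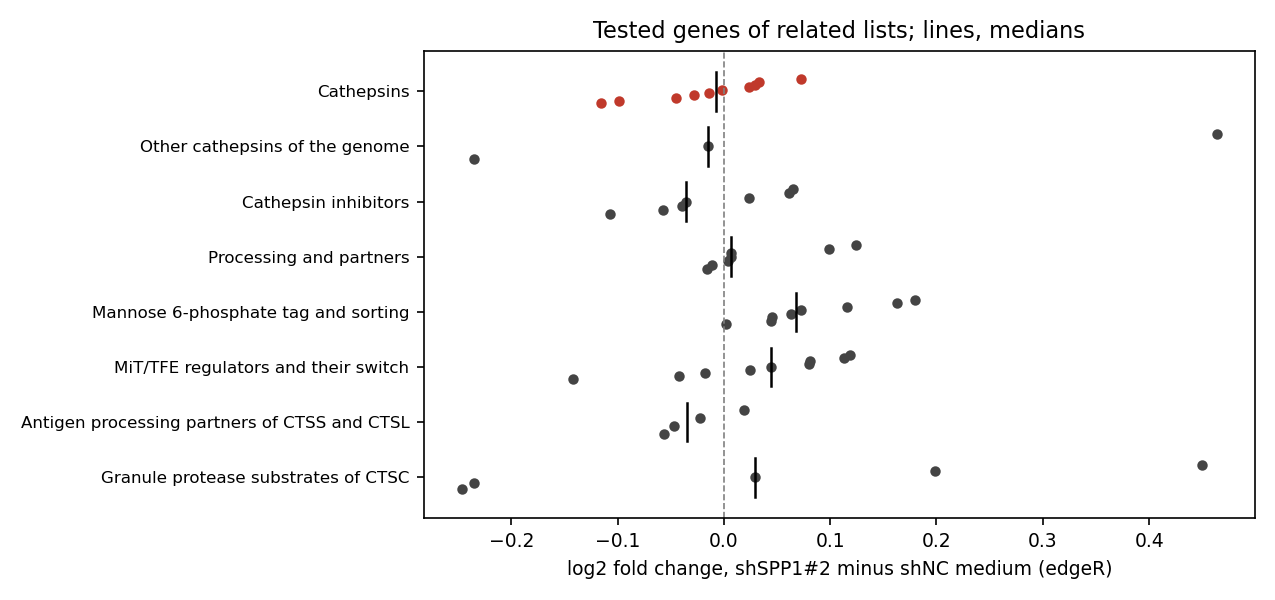
Log2 fold changes (shSPP1#2 minus shNC medium, edgeR) of the 10 cathepsins (red) and of the tested genes of 7 related lists (grey), 1 point per gene, with a line at each median. The 8 tagging and sorting genes all lie above 0 with a median of 0.068, a shared sign that was not tested. None of the points passed the adjusted threshold.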

How the data were processed

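The authors deposited estimated counts per gene, not scaled, and FPKM values per gene, which relate fragments to length and library total. Per the submitters' processing notes the tools were HISAT2 2.0.4, Bowtie2 2.2.5 and RSEM, without stated roles, and the build was GRCh38.p13. The sources used here do not give strand use, annotation or filters. Stray text lines (20) were dropped from the FPKM table. Estimated counts were rounded, filtered with filterByExpr, TMM-scaled and fitted in edgeR 4.0.16 (R 4.3.3) by quasi-likelihood, as shSPP1#2 minus shNC without a block, adjusting by Benjamini-Hochberg over 13555 genes. Calls needed an adjusted p below 0.05. Log2 CPM used a prior count of 2. The test was checked on simulated data. No replicate pair matched within counting noise (chi-square per degree of freedom 3.09 to 4.16). All 10 cathepsins are named, and of each related list the 2 tested genes of smallest p and the most abundant one; the rest of the further cathepsins and TFEB were named after their values were seen. The members and lists were chosen with earlier results of these data known. Alternatives used limma 3.58.1 and DESeq2 1.42.0.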

Additional observations from a re-analysis of the deposited data

How the results depend on the processing

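No cathepsin was called under any of the 16 alternatives, which were 3 other scalings (RLE, total count, upper quartile), 2 other filters (none, or 3 libraries reaching a CPM of 1), a replicate block, 4 other tests (DESeq2, limma-voom, and limma with a pseudocount of 1 or 0.1 on FPKM), and each of the 6 libraries left out. DESeq2 gave CTSC, CTSO and CTSK no adjusted p. Over all genes 18 were called without the filter, 25 by DESeq2 (adjusted over 1891 genes), 1 by limma-voom, 1 at the FPKM pseudocount of 0.1 and 1 to 10 with single libraries left out. The replicate block called 59 genes and 0 cathepsins. With it the edgeR adjusted p was 0.125 for CTSL and 0.256 for CTSZ, the smallest of the 16 alternatives for each. Without shNC replicate 2 the edgeR adjusted p of both was 0.99994. Same-numbered libraries correlated at 0.19, 0.29 and 0.089 in their deviations, and libraries of unlike number at -0.26 to 0.12. Each shNC replicate correlated best with the shSPP1#2 replicate of its number, whereas shSPP1#2 replicate 3 correlated best with shNC replicate 1 (0.12). The main fit had no block because the labels do not state that the numbers pair samples. A shared replicate effect was not tested. CTSL, CTSZ, CTSB, CTSS and CTSO kept their sign in all 16. CTSC turned positive with total-count scaling (0.0039), no filter (0.00062) and with FPKM at a pseudocount of 1 (0.0050) or 0.1 (0.0051), with the cause not tested. With single libraries left out, log2 fold changes ran from -0.026 to 0.089 for CTSA, -0.056 to 0.038 for CTSC, -0.057 to 0.036 for CTSD, -0.076 to 0.0077 for CTSH and -0.042 to 0.060 for CTSK, each crossing 0. CTSL ran from -0.15 to -0.063, CTSZ from -0.12 to -0.064, CTSB from -0.083 to -0.0013 (without shNC replicate 2), CTSS from 0.014 to 0.042 and CTSO from 0.016 to 0.18. By estimated counts the cysteine share was 84.1% in shSPP1#2 and 84.7% in shNC medium. By FPKM without CTSL it was 66.5% in shSPP1#2 and 67.0% in shNC medium. Depth limits CTSK most.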
